A study of Mus musculus with 27 samples.

Results

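The mitochondrially encoded genes were taken as every row of the deposited transcript table whose chromosome is MT, which gave 13 genes among the 30735 genes in the table, each with 1 unspliced protein-coding transcript. No measured value entered this choice. They were followed in 27 mouse libraries of poly(A)-selected RNA: bead-bound retinal ganglion cells (RGCs, the output neurons of the retina), the unbound retinal cells left in the supernatant (SN), and dissected brain regions. All retinal libraries came from mice that carry a knock-in allele in which alkaline phosphatase (AP), a cell-surface enzyme, reports Brn3a (Pou4f1) or Brn3b (Pou4f2), transcription factors of RGCs. Knockouts (KO) carry the AP allele over a null allele (AP/KO) and heterozygotes (HET) carry it over the wild-type allele (AP/WT), so every retinal library, controls included, lacks at least 1 functional copy. AP-positive cells were captured on beads with a mouse antibody against AP, so the RGC fraction holds whatever bound these beads. At postnatal day 3 (P3) there were 2 RGC libraries each of Brn3a KO, Brn3b KO, Brn3a HET and Brn3b HET, and 1 SN library of each. At embryonic day 15 (E15) there were 2 RGC libraries each of Brn3b KO and Brn3b HET, and 1 SN library of each. The brain libraries came from wild-type C57Bl/6 pups at P3 whose retinal targets were traced with cholera toxin B: 3 of the superior colliculus (SC), 3 of the lateral geniculate nucleus (LGN), 1 of the pretectal area (PTA) and 2 of pooled remaining brain sections. No label says that replicates came from separate animals, so p-values measure only the spread between these libraries.

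Mitochondrial DNA encodes core membrane subunits of the respiratory chain, whose other subunits come from nuclear genes. Complex I feeds electrons from NADH into the chain, complex III and complex IV pass them on to oxygen, and complex V uses the proton gradient they build to make ATP. Both strands are transcribed as long precursors that are cut at intervening tRNAs, and neurons with long axons, RGCs among them, depend heavily on this chain. Of the 13 genes, 7 encode subunits of complex I (mt-Nd1, mt-Nd2, mt-Nd3, mt-Nd4l, mt-Nd4, mt-Nd5 and mt-Nd6), 1 of complex III (mt-Cytb), 3 of complex IV (mt-Co1, mt-Co2 and mt-Co3) and 2 of complex V (mt-Atp8 and mt-Atp6). Mitochondrial rRNAs and tRNAs were not analysed here.

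In GRCm38 coordinates the genes lie between bases 2751 and 15288 of chromosome MT, and mt-Nd6 is the only 1 of the 13 annotated on the minus strand. Neighbours overlap at 4 places, each shorter than the reads, which had 76 or 125 bases before trimming. The longest overlap holds the end of mt-Atp8 and the start of mt-Atp6, 43 bases in one bicistronic transcript. The others span 7 bases between mt-Nd4l and mt-Nd4, 1 base between mt-Atp6 and mt-Co3, and 14 bases between mt-Nd5 and mt-Nd6 on opposite strands. The junctions below are printed, with the overlap in capitals, because a read across an overlap holds bases of both genes. They lie at chrMT:7907-7989, chrMT:10147-10193 and chrMT:13532-13585, are read 5′ to 3′ on the plus strand, and come from the GENCODE vM21 transcripts.
mt-Atp8 end and mt-Atp6 start: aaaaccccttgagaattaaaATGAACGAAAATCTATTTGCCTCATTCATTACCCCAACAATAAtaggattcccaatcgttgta
mt-Nd4l end and mt-Nd4 start: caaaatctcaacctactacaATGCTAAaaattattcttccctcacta
mt-Nd5 end and mt-Nd6 end: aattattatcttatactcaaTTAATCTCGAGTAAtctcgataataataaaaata

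The nuclear genome holds copies of mtDNA, and 9 annotated copies are rows of the table. A run of 7 on the minus strand of chr1:24611535-24616197 covers all or part of 7 of the 13 genes. Of these, 5 were identical to their mitochondrial gene over the whole alignment (Gm28661 to mt-Co2, Gm10925 to mt-Atp6, Gm28437 to mt-Co3, Gm10222 to mt-Nd4l and Gm28439 to mt-Nd4) and 2 had 1 mismatch each (Gm29216 to mt-Co1 and Gm28438 to mt-Nd3). The alignment held 31.3% of the mt-Co1 transcript for Gm29216 and 63.6% of the mt-Nd4 transcript for Gm28439. For the rest of the run it held 98.99% to 99.87%. The other 2 copies lie on chromosome 2. The stretches below are printed in the direction of the mitochondrial transcript because they show which reads the counting could assign. For mt-Nd3 (chrMT:9459-9491) and Gm28438 (chr1:24613087-24613119, minus strand), the capital marks the single difference, T3C, counted from the start of the mt-Nd3 transcript.
mt-Nd3: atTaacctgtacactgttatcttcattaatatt
Gm28438: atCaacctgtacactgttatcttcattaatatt

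For mt-Co1 (chrMT:6498-6587), capitals mark the bases that differ from Gm13340 on chromosome 2 (chr2:22588388-22588477, minus strand), which are T1179C, G1180A, C1209T, A1251G and A1260G counted along the mt-Co1 transcript. Gm29216 (chr1:24615991-24616080, minus strand) has no difference from mt-Co1 in this stretch.
mt-Co1: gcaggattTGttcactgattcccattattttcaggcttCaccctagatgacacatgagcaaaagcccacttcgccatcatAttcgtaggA
Gm29216: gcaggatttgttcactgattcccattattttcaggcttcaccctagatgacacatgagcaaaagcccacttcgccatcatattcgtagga
Gm13340: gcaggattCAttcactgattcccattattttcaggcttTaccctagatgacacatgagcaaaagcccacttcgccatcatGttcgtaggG

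The copies of mt-Co1 differed in level, and the part of the mismatches in this was not tested. Gm13340 reached at most 0.981 CPM (counts scaled to a common library total) in retinal libraries and 2.58 CPM in brain libraries. Gm29216, without a difference in the printed stretch, held 796 to 1878 CPM in retinal and 187 to 564 CPM in brain libraries. Copies identical to their gene also differed in level. Gm28439 held 144 to 346 CPM in retinal and 6.44 to 182 CPM in brain libraries. Gm28437 held 448 to 1682 CPM in retinal and 920 to 2595 CPM in brain libraries. Over all 9 copies, the counts amounted to 12.7 to 17.1 per 100 counts of the 13 genes in retinal libraries and 7.09 to 11.5 in those of the brain. The share was 15.6 ± 0.420 per 100 in RGC libraries at P3 (SD, n = 8) and 14.1 ± 1.00 in SN libraries at P3 (SD, n = 4). How reads shared by identical copies were split was the authors' step, so levels of the 7 copied genes depend on it. The 6 genes without a copy on chromosome 1 are mt-Nd1, mt-Nd2, mt-Atp8, mt-Nd5, mt-Nd6 and mt-Cytb.

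Depth ran between 28905675 and 37394655 estimated counts in the retinal libraries and between 10122962 and 13769685 in the brain libraries, and the lowest value of any member, mt-Nd6, was 418 estimated counts in 1 library. Targeted genes went with the titles: Pou4f1 stood at 16.1 and 10.8 CPM in Brn3a KO RGC libraries and at 465 and 436 CPM in Brn3a HET. Brn3b KO had 21.6 and 19.2 CPM of Pou4f2 at P3 and Brn3b HET 191 and 289 CPM. At E15, Pou4f2 stood at 63.1 and 61.1 CPM in Brn3b KO and at 307 and 222 CPM in Brn3b HET. The Brn3a KO RGC library labelled replicate 2 has a genotype entry that names Brn3b, yet its Pou4f1 level was 10.8 CPM and its Pou4f2 level 264 CPM. Its values are therefore given under its title. The source names of all Brn3b libraries name Brn3a and those of all E15 libraries name P3, whereas their genotype and age entries go with the titles, so locus and age rest on the titles and these entries. The summed level of 20 RGC markers was 2049 to 11058 CPM in RGC libraries at P3, against 1046 to 1843 CPM in SN libraries, and the lowest of these RGC sums were the 2049 and 2382 CPM of Brn3b KO.

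At P3 the 13 genes together took a larger part of the RGC libraries than of the SN libraries. Their share of all estimated counts was 4.0% and 3.78% in Brn3a KO, 2.73% and 3.15% in Brn3b KO, 3.29% and 3.36% in Brn3a HET, and 4.11% and 3.17% in Brn3b HET RGC libraries. The SN shares were 1.66% in Brn3a KO, 2.17% in Brn3b KO, 2.41% in Brn3a HET and 2.13% in Brn3b HET. All 8 RGC libraries lay above all 4 SN libraries, with 3.45% ± 0.472 in RGC (SD, n = 8) and 2.09% ± 0.313 in SN (SD, n = 4), a ratio of 1.65.

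Within each genotype at P3 the RGC mean was also the higher one, by a ratio of 2.34 in Brn3a KO, 1.35 in Brn3b KO, 1.38 in Brn3a HET and 1.71 in Brn3b HET, each over a single SN library. At E15 the fractions were not set apart. The share was 3.17% and 3.13% in Brn3b KO RGC and 3.37% and 3.88% in Brn3b HET RGC, against 2.56% in Brn3b KO SN and 3.77% in Brn3b HET SN. The SN libraries thus enclosed most RGC values, and the RGC over SN ratio was 1.23 within Brn3b KO and 0.962 within Brn3b HET.

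**Figure D1:**
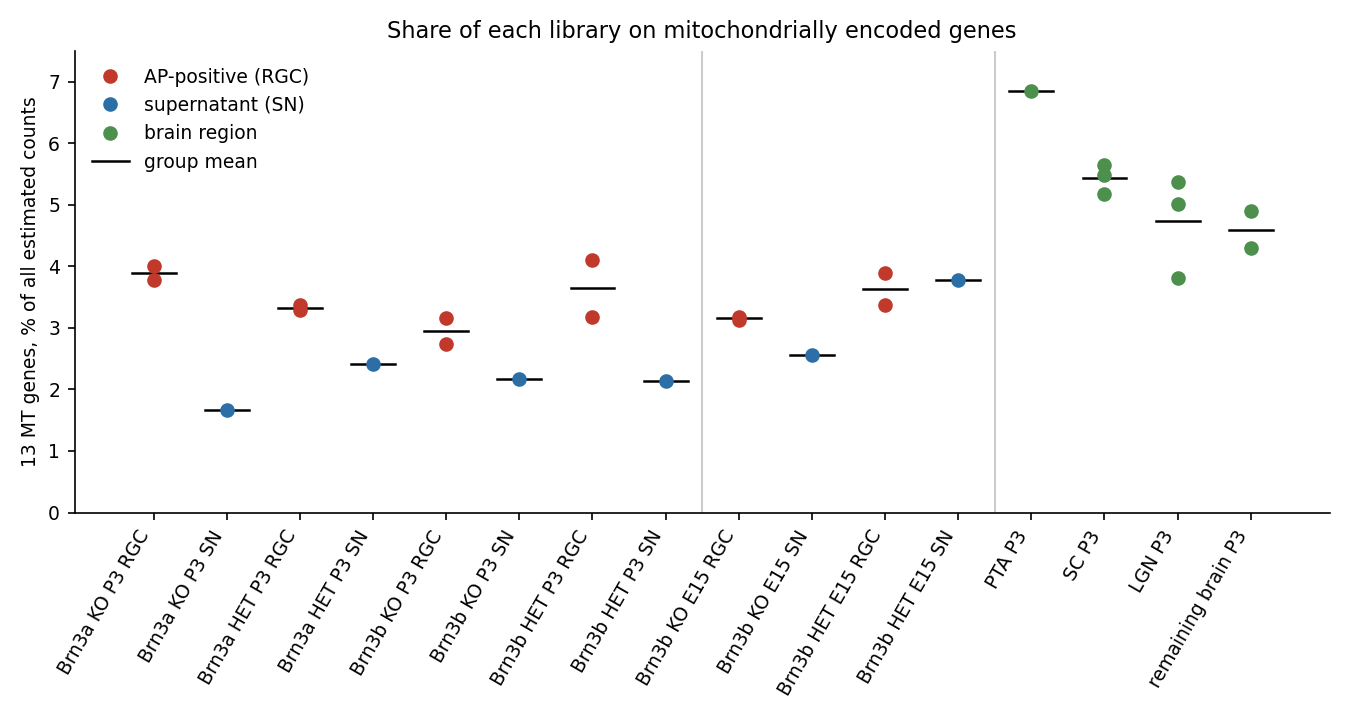
Share of all estimated counts held by the 13 mitochondrially encoded genes (percent, vertical axis from 0), 1 point per library, with bars at group means. At P3 the 8 RGC libraries sit between 2.73% and 4.11% and the 4 SN libraries between 1.66% and 2.41%; brain libraries, sequenced on another instrument, sit between 3.82% and 6.85%.

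Gene by gene, all 13 were higher in RGC than in SN libraries at P3 by edgeR's quasi-likelihood test with Benjamini-Hochberg adjustment over 16954 genes. Higher calls made up 27.3% of all genes tested in this comparison and lower calls 27.7%. The median log2 fold change of the 13 was 0.81, against −0.03 over all genes tested. In this bulk RNA, more cells of a type and more RNA per cell cannot be told apart.

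Among complex I genes, mt-Nd1, which sits where the quinone-binding arm meets the membrane arm, had a lowest, median and highest level of 2027, 2855 and 3444 CPM in RGC. Its SN levels were 1363, 1654, 1982 and 1780 CPM in Brn3a KO, Brn3b KO, Brn3a HET and Brn3b HET, all below the lowest RGC library. The log2 change was 0.81 ± 0.13 (SE; edgeR adjusted p = 0.000149). For mt-Nd5, a proton-pumping subunit at the far end of the membrane arm, RGC libraries had 1695, 2035 and 2608 CPM (lowest, median, highest). The SN levels of mt-Nd5 were 986, 1447, 1400 and 1288 CPM in the same order of genotypes, again without overlap. Its log2 change was 0.81 ± 0.14 (edgeR adjusted p = 0.000269).

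The other proton-pumping subunits moved alike: mt-Nd2 by 0.80 ± 0.15 (edgeR adjusted p = 0.000344) and mt-Nd4 by 0.75 ± 0.15 (edgeR adjusted p = 0.000783) on the log2 scale. The small membrane subunits mt-Nd3 and mt-Nd4l changed by 0.94 ± 0.13 (edgeR adjusted p = 4.26e-05) and 0.90 ± 0.17 (edgeR adjusted p = 0.000429). Levels of mt-Nd3 overlapped, since the lowest RGC library, at 528 CPM, lay below the highest SN library, at 541 CPM.

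The membrane subunit mt-Nd6 had the lowest level of the 13 in this poly(A)-selected RNA, with 20.9, 27.1 and 53.0 CPM in RGC (lowest, median, highest). In SN libraries it had 14.3 CPM in Brn3a KO, 20.1 CPM in Brn3b KO, 28.2 CPM in Brn3a HET and 17.6 CPM in Brn3b HET, so the groups overlapped. Its log2 change of 0.62 ± 0.21 passed with an edgeR adjusted p of 0.0213, the highest of the 13. That call was lost without Brn3a KO RGC replicate 2 (edgeR adjusted p = 0.0515), without the Brn3b KO SN library (0.0514), without the Brn3b HET SN library (0.0696), without the Brn3a KO SN library (0.0885) and with genotype as a block (0.0983). The kit kept strand, but whether counting used it is not stated, so reads of mt-Nd6 and reads from the opposite strand cannot be told apart.

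The complex III gene mt-Cytb, cytochrome b, had 2433, 2904 and 3510 CPM in RGC (lowest, median, highest). Its SN levels were 1566, 2039, 2209 and 1986 CPM in Brn3a KO, Brn3b KO, Brn3a HET and Brn3b HET. The groups did not overlap, and the log2 change was 0.71 ± 0.14 (edgeR adjusted p = 0.000701). In complex IV, mt-Co1, which holds the site where oxygen is reduced, had 5879, 6876 and 8055 CPM in RGC. It had 3530, 4610, 4939 and 4424 CPM in the SN libraries in the same order, without overlap, a log2 change of 0.78 ± 0.15 (edgeR adjusted p = 0.000483).

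The change of mt-Co2, which takes electrons from cytochrome c, was 0.68 ± 0.12 (edgeR adjusted p = 0.000381). For mt-Co3, a core subunit without a redox centre, RGC libraries had 2809, 3557 and 4530 CPM (lowest, median, highest), against 1421, 2074, 2424 and 1962 CPM in SN. Its log2 change of 0.96 ± 0.13 was the highest point estimate of the 13, within its SE of several others (edgeR adjusted p = 3.07e-05).

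The complex V gene mt-Atp8, a small subunit of the stator, had 2123, 2561 and 3807 CPM in RGC (lowest, median, highest), against 1250, 1568, 1840 and 1621 CPM in SN, and changed by 0.90 ± 0.12 (edgeR adjusted p = 2.78e-05). Its neighbour mt-Atp6, part of the proton channel, had 3633, 4373 and 5373 CPM in RGC, against 2216, 2825, 3137 and 2717 CPM in SN, a log2 change of 0.81 ± 0.11 (edgeR adjusted p = 3.67e-05). Neither overlapped between fractions, and in all 11 of 13 genes did not. How many of all genes tested had no overlap was not counted, here or in the comparisons below. Such counts of members therefore have no background to be set against.

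The difference was also fitted with the libraries of each locus alone, and these fits were not tested against each other. With Brn3a libraries alone (4 RGC, 2 SN) and genotype as a block, 12 of the 13 were called and the median log2 change was 0.99. With Brn3b libraries alone (4 RGC, 2 SN), 1 was called, mt-Nd4l at 0.83 (edgeR adjusted p = 0.0471), and the median was 0.60. All 13 had an unadjusted p under 0.05 in that smaller fit, which called 916 genes in all, against 9310 with Brn3a alone. These splits were chosen after seeing the data. The share ratio of RGC over SN was 2.34 in Brn3a KO and 1.35 in Brn3b KO. In HET the order was the other way, with 1.38 in Brn3a and 1.71 in Brn3b.

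**Figure D2:**
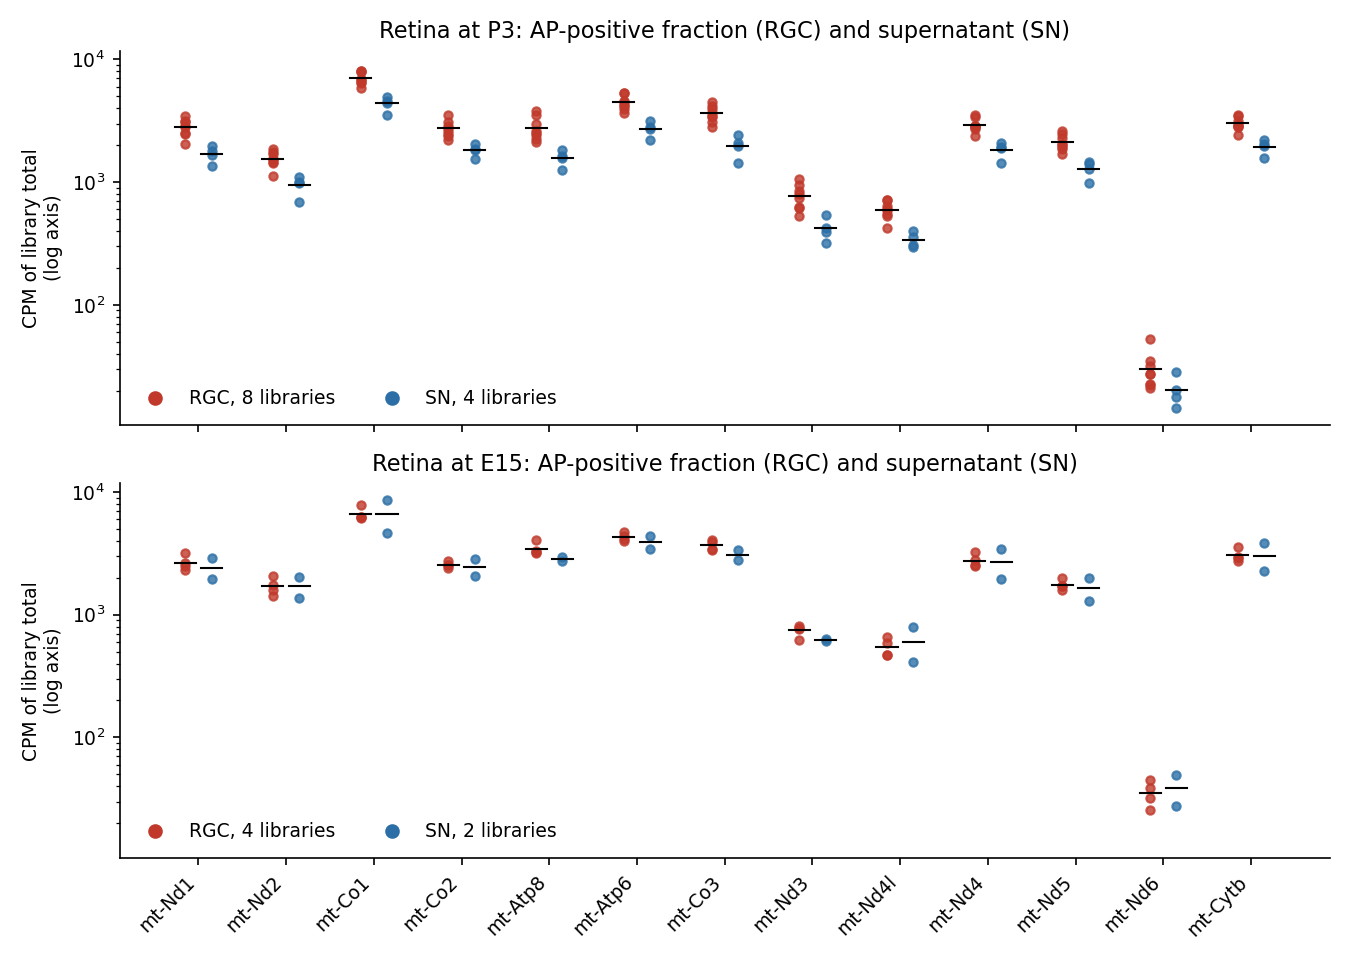
Level of each of the 13 genes (CPM of the library total, log axis) in RGC and SN libraries at P3 (upper panel) and E15 (lower panel), 1 point per library with bars at the mean. At P3 the RGC points lie above the SN points for 11 of the 13 genes, whereas at E15 most overlap.

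Cell composition moved with this contrast. Microglia and macrophage markers summed to 1264 to 4481 CPM in RGC libraries at P3, against 9.53 to 33.2 CPM in SN libraries, with 14 of 14 called higher and none at 0 in either fraction. Progenitor and Mueller glia markers summed to 1167 to 3346 CPM in RGC, against 4112 to 5065 CPM in SN, with 15 of 15 lower. RGC markers were higher for 20 of 20, and 9 of 14 dissociation-stress genes were higher and 1 lower, with sums of 1584 to 2707 CPM in RGC and 939 to 1681 CPM in SN. Of amacrine markers 8 of 10 were lower, and of astrocyte markers 4 were higher and 1 lower of 8. Of photoreceptor markers 2 of 11 were lower, and of erythroid markers 2 of 6 tested were higher. Of vascular markers 3 were higher and 2 lower of 10. Over all genes tested 27.3% were higher and 27.7% lower, so the photoreceptor, erythroid and vascular counts did not stand apart from these shares. The part of each of these lists in the mitochondrial difference was not tested.

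The nuclear subunits of the same complexes had a median closer to that of all genes. Of 76 nuclear subunits of complexes I to V, 22 were higher in RGC and 2 lower at P3, with a median log2 change of 0.15, a share of higher calls close to that of all genes. Complex IV had 7 higher and 1 lower of 11 (median 0.32), among them Cox5a at 0.46 (edgeR adjusted p = 0.00107) and Ndufa4, now counted to complex IV, at 0.56 (edgeR adjusted p = 0.00049). Complex I had 9 higher and 1 lower of 36 (median 0.12), led by the accessory subunit Ndufa1 at 1.05 (edgeR adjusted p = 2.12e-06). Complex V had 5 higher and none lower of 16, including Atp5g1, which encodes the rotor-ring subunit, at 0.49 (edgeR adjusted p = 0.00135). Complex III had 1 higher of 9, Uqcrb at 0.27 (edgeR adjusted p = 0.0286). Complex II, encoded only in the nucleus, had 0 of 4 called.

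Genes that copy and express mtDNA were mostly lower. Of 27 tested, 17 were lower in RGC and 2 higher, with a median of −0.44. Polg, the mtDNA polymerase, changed by −0.87 (edgeR adjusted p = 2.18e-05), Trmt10c, a subunit of the mitochondrial RNase P, by −0.92 (edgeR adjusted p = 8.59e-05), and Ssbp1, which coats single-stranded mtDNA, by −0.77 (edgeR adjusted p = 0.00014). Lrpprc, which stabilises mitochondrial mRNAs, was higher by 0.46 (edgeR adjusted p = 0.000113). Among 9 regulators of mitochondrial biogenesis, 5 were lower and 1 higher (median −0.42). Nrf1, a transcription factor for nuclear genes of mitochondrial proteins, changed by −0.77 (edgeR adjusted p = 6.96e-06). Of the mitochondrial ribosome, 25 of 78 rows were lower and 3 higher (median −0.16).

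Glycolysis was mixed, with 7 higher and 3 lower of 17. The neuronal enolase Eno2 rose by 1.24 (edgeR adjusted p = 1.14e-05) and the ubiquitous enolase Eno1 fell by 1.00 (edgeR adjusted p = 4.02e-06). The nuclear copies of mtDNA were higher for 8 of 8 tested, with Gm28437 at 1.23 (edgeR adjusted p = 1.77e-05). Copies on chromosome 1 share nearly all their bases with their mitochondrial gene, so their change is not independent of that gene's. Those on chromosome 2, Gm13340 and Gm13341, reached at most 0.981 and 0.553 CPM in retinal libraries.

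**Figure D3:**
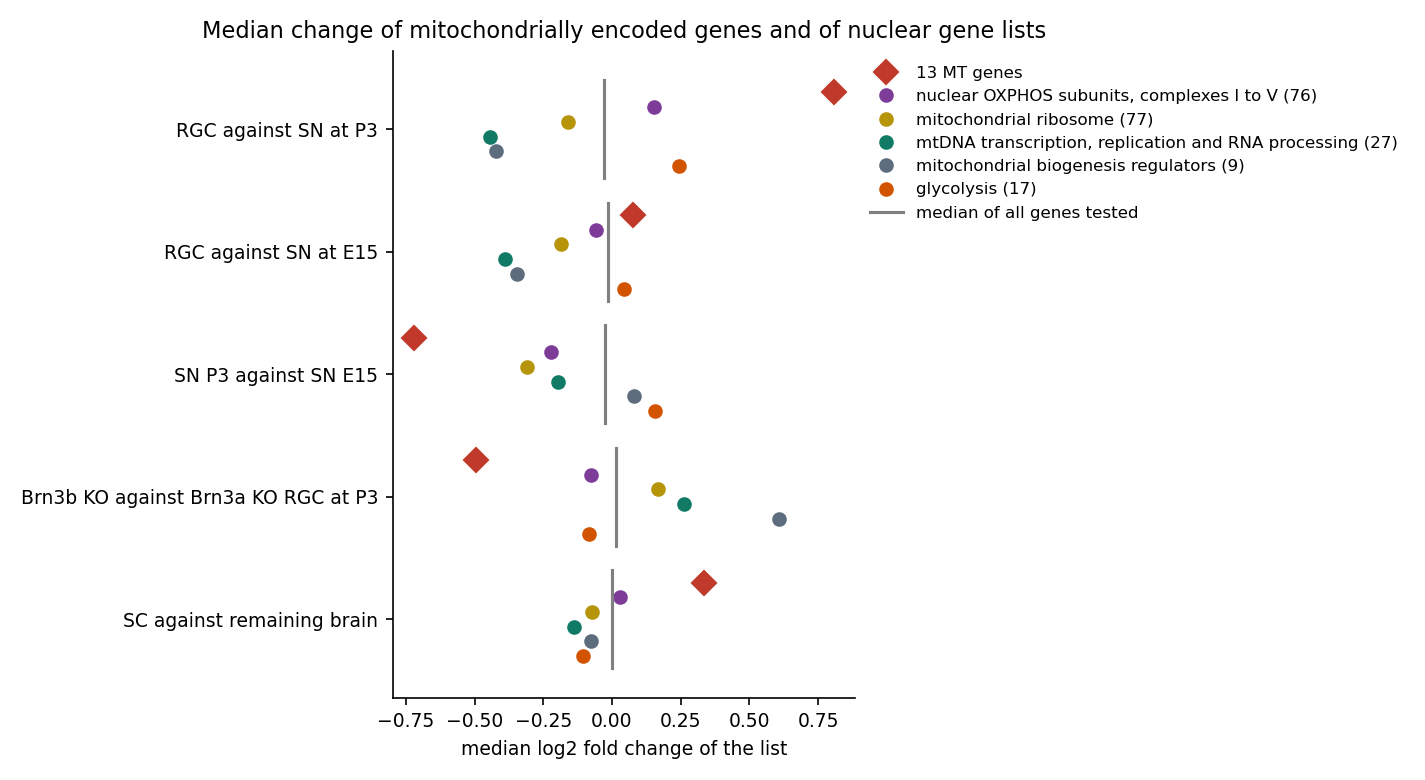
Median log2 fold change of the mitochondrially encoded genes and of nuclear gene lists in 5 comparisons (horizontal axis), with the median of all genes tested as a grey line. The number in brackets is the count of genes listed in the table. For RGC over SN at P3 the mitochondrially encoded genes stand at 0.81, nuclear subunits of complexes I to V at 0.15 and genes for mtDNA transcription, replication and RNA processing at −0.44.

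At E15 none of the 13 genes passed the edgeR test between RGC and SN, where 26.3% of all genes did. None had an unadjusted p under 0.05 and DESeq2 also called 0. Log2 changes ran from −0.15 to 0.28 with a median of 0.08, and only 2 SN libraries carried this comparison. The median was 0.45 without the Brn3b HET SN library and −0.19 without the Brn3b KO SN library, so its sign turned on which was kept. Microglial marker sums were 784 to 1189 CPM in RGC and 9.28 to 10.2 CPM in SN, where 2 of the 14 markers were at 0.

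The difference between ages was tested as an interaction. The RGC over SN change was larger at P3 than at E15 for 7 of the 13 genes, where 9.74% of all genes were called in that direction. The 7 were mt-Nd4l at 1.05 (edgeR adjusted p = 0.0187), mt-Nd2 at 0.81 (0.0346), mt-Co1 at 0.77 (0.0451), mt-Co3 at 0.69 (0.0410), mt-Nd1 at 0.68 (0.0467), mt-Atp6 at 0.65 (0.0280) and mt-Atp8 at 0.62 (0.0468). Over all genes called for the interaction, 55.6% were higher, and 45.3% with library totals as the scaling. The remaining 6 had adjusted p between 0.0508 and 0.146. All 13 had an unadjusted p under 0.05, as had 5403 of all 16954 genes tested. The count rested on single libraries. It was 0 without Brn3b HET SN replicate 2 at E15, 11 without the Brn3b KO SN library at E15 and 9 without Brn3b HET RGC replicate 2 at P3. It was 1 to 3 without any 1 of the other retinal libraries, except the Brn3a HET SN library, without which it stayed at 7.

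The SN fraction itself fell with age. The share was 1.66%, 2.17%, 2.41% and 2.13% in the SN libraries at P3 (Brn3a KO, Brn3b KO, Brn3a HET and Brn3b HET), against 2.56% and 3.77% at E15 (Brn3b KO and Brn3b HET). All P3 libraries lay below both E15 libraries. By edgeR, 12 of the 13 genes were lower at P3, where 17.5% of all genes were lower and 15.6% higher, and 8 of the 13 did not overlap. Of all calls, 47.2% were higher, and 60.3% with library totals as the scaling. The E15 libraries are both Brn3b while the P3 libraries hold both loci, and these SN libraries also enter the RGC against SN comparisons.

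The deepest changes were in mt-Nd6, at −1.07 (edgeR adjusted p = 0.0098), mt-Nd2, at −0.98 (0.00184), and mt-Atp8, at −0.98 (0.00045). mt-Atp8 had 1250, 1568, 1840 and 1621 CPM in SN at P3, against 2743 and 2964 CPM at E15. mt-Nd5 was the exception, at −0.49 (edgeR adjusted p = 0.0653). Without the Brn3b HET SN library at E15, 1 gene was called and the median was −0.34.

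Over the same contrast, nuclear subunits of complexes I to V were lower for 19 and higher for 5 of 76 (median −0.22). Complex V had 8 of 16 lower, with Atp5j, a stalk subunit, at −0.84 (edgeR adjusted p = 0.000201), and complex IV had 4 of 11 lower. The mitochondrial ribosome had 26 of 78 lower and 1 higher, and genes for mtDNA expression 9 lower and 2 higher of 27, with Tfb1m, which methylates the small mitochondrial rRNA, at −1.38 (edgeR adjusted p = 0.00045). Biogenesis regulators had 3 higher and 2 lower of 9. Ppargc1a, the coactivator PGC-1alpha, was higher by 1.65 (edgeR adjusted p = 0.00052). RGC markers were lower for 13 and higher for 2 of 20, photoreceptor markers higher for 9 and lower for 1 of 11, and erythroid markers lower for 4 of 6 tested. Their part in the fall was not tested.

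In RGC libraries 1 gene passed the test between ages in each genotype. Brn3b KO libraries had a share of 2.73% and 3.15% at P3 and 3.17% and 3.13% at E15, and Brn3b HET libraries 4.11% and 3.17% at P3 and 3.37% and 3.88% at E15, so both ages overlapped. In Brn3b KO, 1 of 13 genes was lower at P3, where 11.1% of all genes were lower: mt-Atp8, with 2123 and 2496 CPM at P3, against 3157 and 3227 CPM at E15. Its log2 change was −0.54 ± 0.17 (edgeR adjusted p = 0.0407), and leaving out any 1 of the 4 libraries ended the call. In Brn3b HET, 1 gene was lower, where 12.3% of all genes were: mt-Nd6, with 31.9 and 20.9 CPM at P3, against 44.8 and 39.0 CPM at E15. The log2 change was −0.72 ± 0.24 (edgeR adjusted p = 0.0495), close to the threshold of 0.05, and the call was lost with library totals as the scaling. It was also lost without Brn3b HET RGC replicate 2 at P3 and without either replicate at E15.

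Loss of Brn3a or Brn3b left no mitochondrially encoded gene past the threshold. In Brn3a at P3, KO libraries had a share of 4.0% and 3.78% and HET libraries 3.29% and 3.36%, KO above HET without overlap. Both KO libraries exceeded both HET libraries in 11 of the 13 genes, with a median log2 change of 0.21. The edgeR count was 0, where 0.018% of all genes were called, and DESeq2 called 0. An unadjusted p under 0.05 was held by 432 of all 16673 genes tested and by 3 of the 13. These were mt-Nd6, with 34.5 and 53.0 CPM in KO, against 22.2 and 22.8 CPM in HET (log2 0.95), mt-Atp8, with 2963 and 3807 CPM in KO, against 2245 and 2419 CPM in HET (log2 0.54), and mt-Nd3 (log2 0.37). Their edgeR adjusted p was 1 each. The higher KO value of mt-Nd6 and mt-Atp8 came from replicate 2, the library with the conflicting genotype entry. Without it the median was 0.31, mt-Nd6 changed by 0.65 and mt-Atp8 by 0.38, and 1 gene had an unadjusted p under 0.05. Without KO replicate 1 the median was 0.12.

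In Brn3b at P3 the order was the other way, with 2.73% and 3.15% in KO and 4.11% and 3.17% in HET. The KO libraries lay below both HET libraries in 4 of the 13 genes, and the median log2 change was −0.33. The median was −0.13 without HET replicate 1, −0.20 without KO replicate 1 and −0.51 without HET replicate 2. The edgeR count was 0, where 3.41% of all genes were called, with 3 at an unadjusted p under 0.05 (mt-Atp8, mt-Atp6 and mt-Co3). Of all 16673 genes tested, 3191 had an unadjusted p under 0.05. mt-Co3 had 2809 and 3067 CPM in KO, against 4530 and 3399 CPM in HET, a log2 change of −0.46 (edgeR adjusted p = 0.119), while DESeq2 called it at −0.43 with an adjusted p of 0.0494.

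At E15, Brn3b KO had 3.17% and 3.13% and HET 3.37% and 3.88%. KO lay below HET in 10 of the 13 genes, with a median of −0.21. The edgeR and DESeq2 counts were 0, where edgeR called 1.85% of all genes, and 2 (mt-Nd6 and mt-Nd4l) had an unadjusted p under 0.05. So had 1951 of all 16673 genes tested. The KO effect did not pass as different between E15 and P3 for any member (0 by edgeR and DESeq2, 0 unadjusted, median −0.11, 0.192% of all genes called). That median ran from −0.25 without HET replicate 2 at P3 to 0.06 without HET replicate 1 at P3, and was 0.02 without HET replicate 1 at E15. Between the Brn3b and Brn3a loci at P3 the KO effect differed with a median of −0.54. There edgeR called 0, where 0.012% of all genes were called. An unadjusted p under 0.05 was held by 11 of the 13 and by 1471 of all 16673 genes tested. DESeq2 called mt-Atp8 at −0.95 with an adjusted p of 0.0148. Without the Brn3a KO library with the conflicting entry, the edgeR median was −0.64, mt-Atp8 changed by −0.83 and 10 genes had an unadjusted p under 0.05; DESeq2 was not run without it. Without Brn3b HET replicate 1 the median was −0.35.

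**Figure D4:**
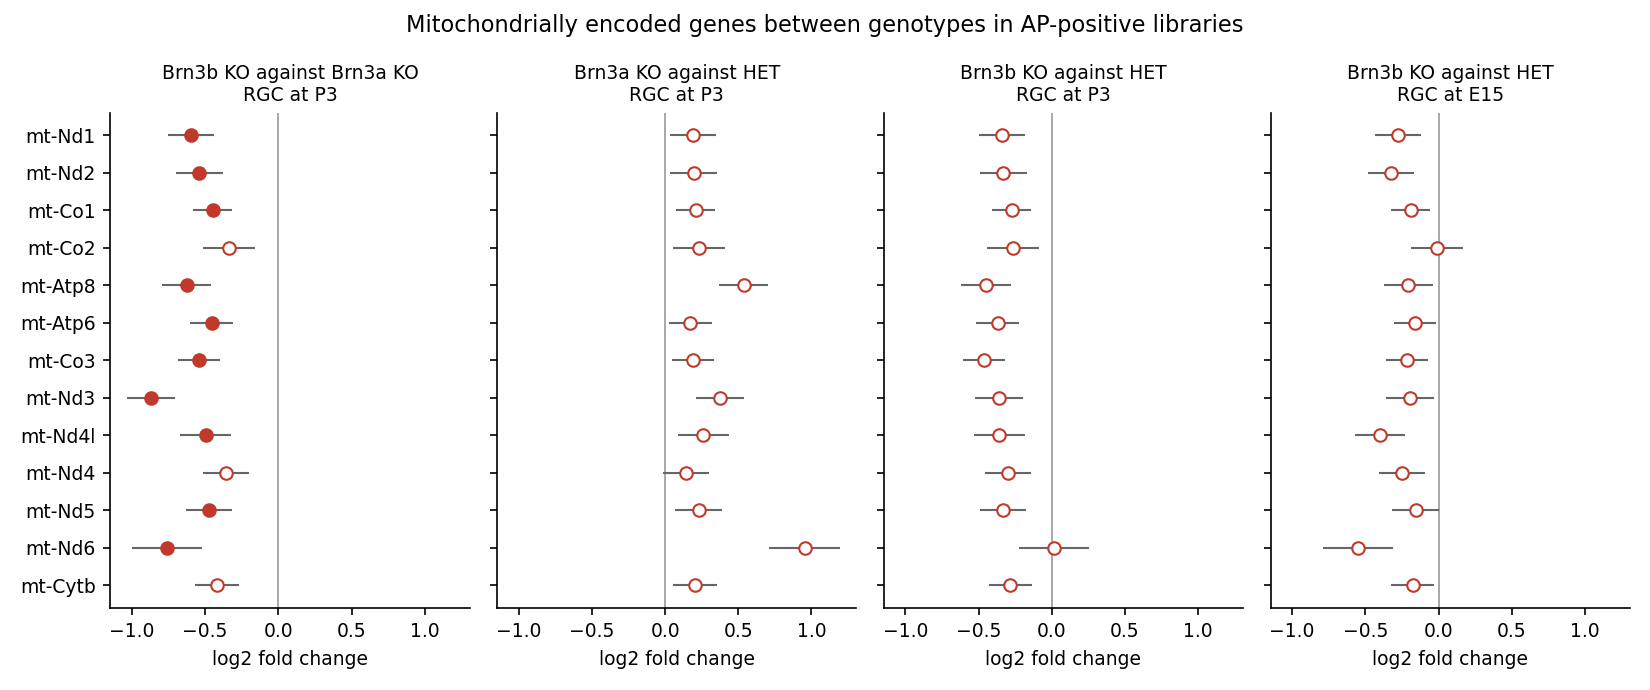
Log2 fold change of each of the 13 genes between genotypes in RGC libraries, with bars of ±1 SE; filled points passed the edgeR test at an adjusted p under 0.05. In Brn3b KO against Brn3a KO 10 genes are filled, and in the KO against HET panels none is.

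The KO libraries of the 2 loci were set against each other directly. Brn3b KO RGC libraries had a share of 2.73% and 3.15%, against 4.0% and 3.78% in Brn3a KO, a ratio of 0.756 without overlap. All 13 genes were lower in both Brn3b KO libraries, and 10 were called lower by edgeR, where 19.2% of all genes were lower and 16.7% higher. mt-Nd3 had 528 and 627 CPM in Brn3b KO, against 948 and 1056 CPM in Brn3a KO, a log2 change of −0.87 ± 0.16 (edgeR adjusted p = 0.00391). mt-Nd6 changed by −0.76 ± 0.24 (edgeR adjusted p = 0.0335), mt-Atp8 by −0.63 (0.0181), mt-Nd1 by −0.59 (0.0169) and mt-Co3 by −0.54 (0.0164). Without the Brn3a KO library with the conflicting genotype entry, the changes of mt-Nd6 and mt-Atp8 were smaller, at −0.46 and −0.47. That of mt-Nd4l was −0.45, against −0.50 with this library, while mt-Nd4 and mt-Cytb changed more, by −0.51 and −0.52. In the same fit mt-Nd3 changed by −0.83, mt-Nd1 by −0.71 and mt-Co3 by −0.62.

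The 3 not called were mt-Co2 at −0.34 (edgeR adjusted p = 0.165), mt-Nd4 at −0.36 (0.0982) and mt-Cytb at −0.42 (0.0502). The count was 9 without the Brn3a KO library with the conflicting entry, 3 without Brn3a KO replicate 1, 1 without Brn3b KO replicate 1 and 5 without Brn3b KO replicate 2. It was also 5 with library totals as the scaling, where the median was −0.42. These libraries also enter the KO against HET comparisons.

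Cell composition moved with this contrast as well. RGC markers were lower in Brn3b KO for 19 and higher for 1 of 20, microglial markers lower for 14 of 14, with sums of 1630 and 1264 CPM in Brn3b KO and 4481 and 3860 CPM in Brn3a KO. Progenitor and Mueller glia markers were higher for 11 of 15, amacrine markers for 9 of 10 and photoreceptor markers for 6 of 11. Erythroid markers were lower for 5 of 5 tested, and dissociation-stress genes lower for 7 and higher for 1 of 14. Their part in the difference was not tested.

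Among nuclear subunits of complexes I to V, 6 were lower and 1 higher of 76 (median −0.08), with Ndufa1 at −1.33 (edgeR adjusted p = 0.000877) and Ndufs5, another complex I accessory subunit, at −1.21 (0.00703). Genes for mtDNA expression were higher for 6 and lower for 2 of 27. Tfam, which packages mtDNA and starts its transcription, was higher by 0.79 (edgeR adjusted p = 0.0184), and Lrpprc changed by −0.52 (0.00525). Biogenesis regulators were higher for 4 of 9, with Nrf1 at 1.10 (edgeR adjusted p = 0.00177).

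The HET libraries of the 2 loci, in contrast, gave 0 calls by edgeR and DESeq2 and 0 unadjusted, with a median of 0.09 for Brn3b HET over Brn3a HET, where edgeR called 3.86% of all genes. The sign of that median turned on 1 library, since it was −0.13 without Brn3b HET replicate 1. It was 0.23 without Brn3b HET replicate 2 and 0.03 without Brn3a HET replicate 2. Whether the KO contrast differed from the HET contrast is the interaction between loci given above, in which edgeR called none of the 13.

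In the brain the 13 genes held 5.18%, 5.64% and 5.48% of counts in the SC, 5.02%, 5.36% and 3.82% in the LGN, 6.85% in the PTA, and 4.90% and 4.29% in the remaining brain. The single PTA library was the highest of all 27 and has no replicate. The SC libraries lay above both remaining-brain libraries, whereas the LGN libraries lay on both sides of them.

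SC against LGN gave 0 calls by edgeR and DESeq2 and 0 unadjusted, where edgeR called 10.2% of all genes, with a median log2 change of 0.15. It was 0.06 without LGN replicate 3, 0.26 without LGN replicate 2 and 0.23 without SC replicate 1. SC against remaining brain gave 1 higher gene, where 3.19% of all genes were higher: mt-Nd3, with 1340, 1564 and 1765 CPM in the SC, against 1049 and 1016 CPM in the remaining brain. Its log2 change was 0.63 ± 0.14 (edgeR adjusted p = 0.0258), and the median of the 13 was 0.33, or 0.20 without remaining-brain replicate 2. The call was lost without SC replicate 2 or either remaining-brain library, and the count was 2 without SC replicate 1.

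LGN against remaining brain also gave mt-Nd3, where 5.76% of all genes were higher, with 1484, 1396 and 1283 CPM in the LGN. Of all calls, 52.7% were higher in the LGN, and 41.0% with library totals as the scaling. The change was 0.50 ± 0.14 (edgeR adjusted p = 0.0458), and leaving out any 1 of the 5 libraries ended the call. Both comparisons share the remaining-brain libraries, and mt-Nd3 is 1 of the genes with a near-identical nuclear copy. Nuclear subunits of complexes I to V had 0 of 76 called for SC against remaining brain and 2 higher for LGN against remaining brain.

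Levels between genes were compared per transcript length, as CPM per kilobase. In RGC libraries at P3 mt-Atp8 was the highest at 13623 and mt-Atp6 followed at 6581 (means, n = 8), then mt-Co3 at 4628, mt-Co1 at 4573 and mt-Co2 at 4009. mt-Nd1 at 2929, mt-Cytb at 2628, mt-Nd3 at 2213, mt-Nd4 at 2118 and mt-Nd4l at 2003 came next. The low end was mt-Nd2 at 1495, mt-Nd5 at 1161 and mt-Nd6 at 57.7. Of the neighbours in this order, only mt-Atp8 and mt-Atp6, and mt-Nd5 and mt-Nd6, had libraries that did not overlap. mt-Co3 was above mt-Co1 in 4 of 8 libraries, so their order was undetermined.

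SN libraries at P3 had the same ends, with mt-Atp8 at 7694, mt-Atp6 at 4000, mt-Nd5 at 702 and mt-Nd6 at 38.7 CPM per kilobase (means, n = 4). In the SC mt-Atp8 led at 16302, and mt-Co1 had the next mean, at 8080 (means, n = 3). mt-Co3 at 7638 and mt-Atp6 at 7094 followed. mt-Co1 was above mt-Co3 in 2 of 3 SC libraries, so their order was undetermined. Levels of the copied genes per length, in all libraries, depend on how shared reads were split. In the SC, the mt-Co3 copy Gm28437 held 1144 to 1258 CPM and the mt-Atp6 copy Gm10925 778 to 1391 CPM. The mt-Co1 copy Gm29216 held 250 to 379 CPM there, and copies were not added to these levels. mt-Atp8 and mt-Atp6 share their transcript and the printed overlap, yet mt-Atp8 stood 1.76 to 2.90 times higher per length in every retinal library. mt-Nd4l and mt-Nd4, the other bicistronic pair, had a ratio of 0.551 to 1.16 over all 27 libraries. The lowest of the 12 plus-strand genes exceeded mt-Nd6 by 10.8 to 25.8 times per length. Levels between genes in poly(A)-selected RNA also depend on how well each transcript was captured, which was not tested.

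**Figure D5:**
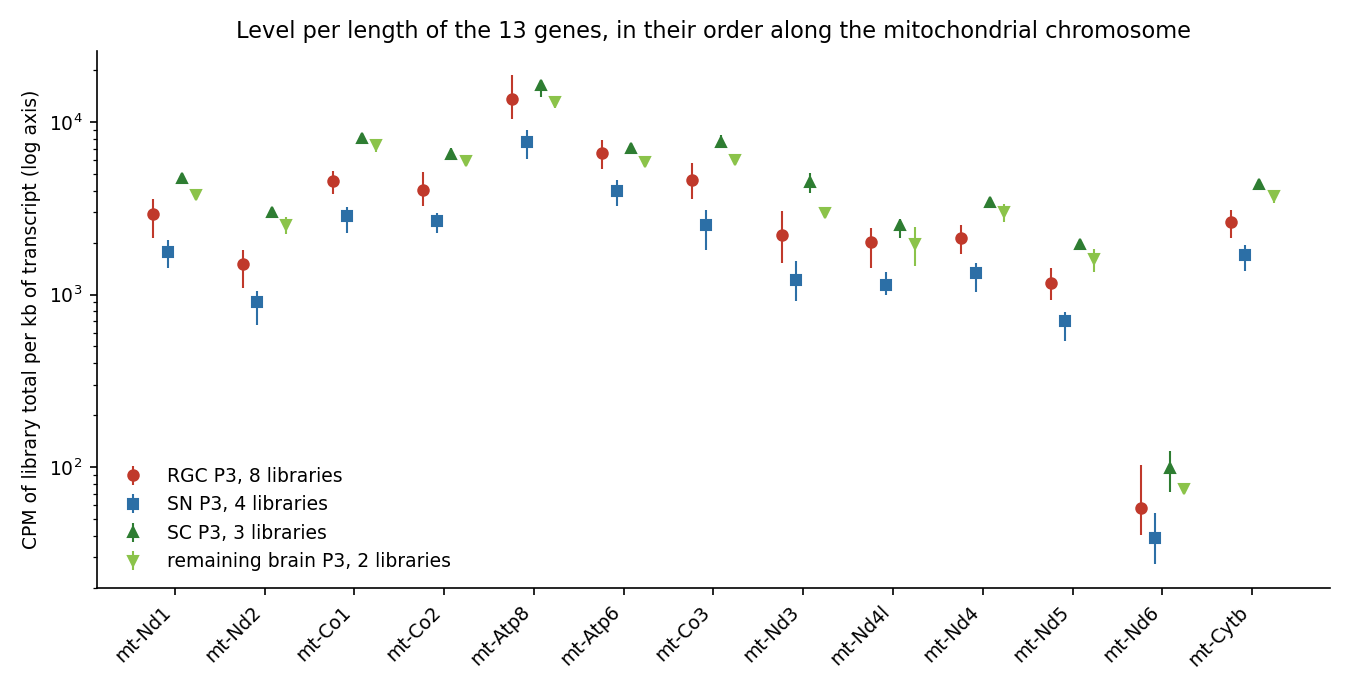
Mean level of each gene per transcript length (CPM per kilobase, log axis) in RGC, SN, SC and remaining-brain libraries at P3, in gene order along chromosome MT; bars span the lowest to the highest library. mt-Atp8 is at the top and mt-Nd6 at the bottom in all 4 groups.

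The proportions among the 13 genes varied less than their sum. Complex I genes made up 28.4% to 32.3% of mitochondrial counts in the retina, the complex III gene 8.39% to 10.1%, complex IV genes 37.1% to 39.9% and complex V genes 19.4% to 24.1%. In the brain, complex IV genes made up 40.5% to 44.4% and complex V genes 13.7% to 17.0%, outside the retinal ranges. The retina was read single-end at 76 bases and the brain paired-end at 125 bases on another instrument, so tissue and sequencing cannot be told apart here. Between fractions at P3, mt-Co3 took 10.5% ± 0.409 of mitochondrial counts in RGC (SD, n = 8) and 9.34% ± 0.634 in SN (SD, n = 4). mt-Cytb took 8.74% ± 0.235 in RGC and 9.32% ± 0.115 in SN, and mt-Co2 7.95% ± 0.492 in RGC and 8.74% ± 0.427 in SN. These shares are of a fixed sum, so each depends on the others.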

How the data were processed

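RNA abundance was measured in 27 libraries: 12 RGC, 6 SN and 9 brain. Per the labels' protocols, the kit was stranded and selected mRNA; reads were single-end of 76 bases for retina and paired-end of 125 bases for brain. The deposited values are estimated counts per Ensembl transcript, not normalized between libraries, made by the authors with, per the submitters' processing notes, Trimmomatic 0.32, Bowtie2 2.2.1, eXpress 1.3.1 and GRCm38.p3. Whether counting used strand is not given in the sources used here. Near-identical copies share reads, and a read across a gene overlap holds bases of both genes. The deposited GC percent column was not used.

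Each gene's transcripts were summed and the sum rounded to a whole number. Levels are shares of the library total, in percent or CPM. Tests used edgeR 4.0.16 (R 4.3.3, limma 3.58.1) (TMM scaling, genes kept by filterByExpr at minimum count 10) and its quasi-likelihood test with Benjamini-Hochberg adjustment over all genes tested, so log2 changes are on the TMM scale; an adjusted p under 0.05 is a call. SE is the log2 change over the square root of F. The fits held all 18 retinal libraries (16954 genes, SN pooled over genotypes within an age), the 12 RGC libraries (16673 genes) and the 9 brain libraries (15288 genes). The single PTA library entered the brain fit but no comparison. With 10, 6 and 5 residual degrees of freedom, these small groups limit precision more than depth does. DESeq2 1.42.0 was an alternative. The summed share has no test. The scripts were tested on simulated data.

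Groups follow the titles; where the source name gives another gene or age, or another replicate number (Brn3b HET SN at E15, replicate 2 by title and 3 by source name), it was not used. All 13 members are accounted for in each comparison, and up to 4 genes with the smallest adjusted p are named from each nuclear or marker list. Copies were aligned with blastn 2.17.0 to GENCODE vM21 transcripts, and 22 of 22 matched transcripts had the length given in the deposited table. The members were taken by chromosome alone, without use of a measured value. The gene group, lists and comparisons were nevertheless set with earlier results of these data known. Alternatives were other scalings, no filter, fits of the compared groups only, a genotype or replicate block, summed nuclear copies and leaving out each library.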

Additional observations from a re-analysis of the deposited data

Results flagged for a closer look

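In 3 of 42 checks of a group of 4 to 10 libraries, 1 library stood far from the rest, where chance gives about 1 in 20. mt-Nd6 was at 53.0 CPM in Brn3a KO RGC replicate 2 at P3, the highest of 8 RGC libraries. This is the library whose genotype entry names the other gene. mt-Co1 was at 7894 CPM and mt-Atp8 at 4090 CPM in Brn3b HET RGC replicate 2 at E15, each the highest of 4 RGC libraries at that age.

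The RGC over SN difference was larger at P3 than at E15 by edgeR's interaction test for 7 genes. The log2 differences between the ages were 1.05 for mt-Nd4l, 0.81 for mt-Nd2, 0.77 for mt-Co1, 0.69 for mt-Co3, 0.68 for mt-Nd1, 0.65 for mt-Atp6 and 0.62 for mt-Atp8. Without Brn3b HET SN replicate 2 at E15, none of these was called.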

How the results depend on the processing

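With 2 to 8 libraries a group, single libraries decided several counts. Of 1716 results for single genes under other settings, 1639 kept their side of the threshold and, where called, their direction, 58 lost a call and 19 gained one; with 1 library left out, 1171 of 1326 did so, 142 lost and 13 gained a call. No called value reversed. All 13 members are protein-coding, and no fit restricted to protein-coding rows was run. The cause of each change below was not tested. Library totals as scaling moved the median of all genes from −0.03 to −0.12 for RGC against SN at P3 and from −0.02 to 0.08 for SN at P3 against E15.

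For RGC against SN at P3, 1 gene was called with Brn3b libraries only. The interaction with age gave 3 genes with library totals as scaling, 3 with scaling on nuclear genes, 11 with RLE scaling, 4 without the filter, 12 with DESeq2, and 0 to 11 with 1 library left out. SN at P3 against E15 gave 1 to 13 with 1 library left out. Brn3b HET RGC at P3 against E15 gave 0 with library totals, nuclear scaling or the compared groups only, and 0 to 1 with 1 library left out; Brn3b KO gave 0 with library totals and 0 with each library left out. Brn3b KO against HET at P3 gave 1 with DESeq2, as did the KO effect by locus. Brn3b KO against Brn3a KO gave 5 with library totals, 5 with the compared groups only, and 1 to 9 with 1 library left out. SC against remaining brain gave 3 with DESeq2, 0 with the compared groups only and 0 to 2 with 1 library left out; LGN against remaining brain gave 0 with library totals and 0 with each library left out. The share difference between RGC and SN at E15 was 0.225 percentage points, and −0.381 to 0.830 with 1 library left out; between SN at P3 and E15 it was −1.07, and −1.68 to −0.464.

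No label says that a replicate number marks a shared animal or batch. Brain titles carry the number after an M (such as M1SC, M1LGN and M1Brain), and whether M1 marks 1 mouse is not stated. The main fits did not pair these numbers. Not every same-numbered pair had deviations correlated over 0.1. Correlations were −0.116 to 0.171 in RGC libraries (2 of 30 over 0.1). With 2 libraries a group, deviations within a group mirror each other, so these 2 are the same correlation at both replicate numbers. In brain libraries correlations were −0.0235 to 0.218 for the same number (median 0.114, 4 of 7 over 0.1). For different numbers they were −0.201 to 0.154 (median −0.0482, 2 of 14 over 0.1). SN groups hold 1 library each, so RGC with SN pairs could not be checked. With a replicate block, the interaction with age gave 2 genes, Brn3b HET RGC at P3 against E15 gave 0, Brn3b KO against Brn3a KO gave 8 and LGN against remaining brain gave 0.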
